A study of Caenorhabditis elegans with 2 samples.

Results

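Within 1000 bp of an annotated snRNA or snoRNA gene lay 285 of the 29970 nuclear candidate regions of a chromatin immunoprecipitation experiment against EOR-1 in Caenorhabditis elegans. A region was taken when its summit, the base of highest signal, lay inside such a gene of the Ensembl annotation or at most 1000 bp from it. Spliced leader genes named sls were left out. The nearest gene was an snRNA gene for 50 of the regions and an snoRNA gene for the other 235. The animals were whole L3 larvae, with the sexes pooled, of strain OP81, with the mutation unc-119(ed3) and the transgene wgIs81, which carries eor-1 fused to eGFP. Both biological replicates carried all of these alleles, so there was 1 group, no untagged animals were among the samples, and the lists average over all tissues of the larva.

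EOR-1, a transcription factor with zinc fingers, acts in the worm downstream of Ras and Wnt signalling. Small nuclear RNAs (snRNAs) are the RNA core of the spliceosome, and small nucleolar RNAs (snoRNAs) guide the chemical modification of ribosomal and other RNAs. In animals, snRNA genes have promoters of their own, with a proximal sequence element read by the complex SNAPc, whereas many snoRNAs are cut out of introns of protein-coding host genes, often genes of ribosomal and nucleolar proteins. A region near an intronic snoRNA gene can therefore also lie at its host's promoter, and distances to both are given below.

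Each region of the deposited pooled list carries a signal value whose scale is not stated, and a smaller set of reproducible peaks formed the authors' optimal list. At the 3 members below the summit lay within 50 bp of the start of the small RNA gene or inside it, and the region took in the gene itself. They are shown because the small RNA gene is that close to the summit, though all 3 summits also lie within the span of the host gene. They come from build ce11, plus strand, with the bases of the small RNA gene in capitals: ZK994.7, an snoRNA gene in an intron of pxn-1, at chrV:8500382-8500677 (gene on the plus strand), and sup-6, an snRNA gene in an intron of F58G1.7, at chrII:12944764-12945059 (minus strand). The last is the region at sup-39, a gene related to sup-6 in an intron of C15F1.5, at chrII:6968389-6968684 (minus strand).
ZK994.7 region: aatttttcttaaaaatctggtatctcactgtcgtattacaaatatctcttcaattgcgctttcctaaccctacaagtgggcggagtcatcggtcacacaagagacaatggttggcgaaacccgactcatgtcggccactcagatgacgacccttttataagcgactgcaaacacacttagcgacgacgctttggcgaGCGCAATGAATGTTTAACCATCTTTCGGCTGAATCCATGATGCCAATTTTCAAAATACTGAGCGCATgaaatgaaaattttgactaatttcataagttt
sup-6 region: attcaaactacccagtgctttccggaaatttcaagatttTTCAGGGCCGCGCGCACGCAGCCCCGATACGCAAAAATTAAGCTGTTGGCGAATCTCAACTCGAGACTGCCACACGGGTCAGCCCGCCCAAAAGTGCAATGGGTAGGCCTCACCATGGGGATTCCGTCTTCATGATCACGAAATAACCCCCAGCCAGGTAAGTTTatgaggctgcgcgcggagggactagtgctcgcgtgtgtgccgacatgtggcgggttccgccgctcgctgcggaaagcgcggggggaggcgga
sup-39 region: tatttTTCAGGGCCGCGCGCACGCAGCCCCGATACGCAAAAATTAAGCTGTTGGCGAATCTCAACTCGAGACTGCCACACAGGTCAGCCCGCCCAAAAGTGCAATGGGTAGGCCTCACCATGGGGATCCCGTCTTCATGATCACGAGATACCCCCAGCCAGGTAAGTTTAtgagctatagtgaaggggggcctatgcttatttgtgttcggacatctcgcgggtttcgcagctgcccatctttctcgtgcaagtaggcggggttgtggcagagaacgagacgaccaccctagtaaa

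An 8-base word, CGGAACCC, was the most frequent word in the 100 bp upstream of the 445 snRNA and snoRNA genes. It was found in these same sequences, so its counts there are a description. On the gene's strand it lay upstream of 46 genes (10.3%), of which 26 were snRNA and 20 were snoRNA genes, and upstream of 5 of 19973 protein-coding genes (0.025%). None of the 445 genes had it on the opposite strand. The word ended a median of 53.5 bp before the gene. The windows below run 5′ to 3′ on the gene's strand in ce11, end at the base before the gene and have the word in capitals. They are shown for Y53F4B.47, which had a member in the optimal list, and for sup-6, which had one inside the gene. Also shown are 1 SmY gene (smy-7) and 1 snoRNA gene without a member (W05B2.9). The others are 1 gene of each of a further pair of snRNA families (F07C6.5 on chromosome IV and F10D2.13 on chromosome V). The F07C6.5 copy shown lies in an intron of pin-2, and its identical copy in an intron of unc-31 lacks the word upstream.
Y53F4B.47 upstream: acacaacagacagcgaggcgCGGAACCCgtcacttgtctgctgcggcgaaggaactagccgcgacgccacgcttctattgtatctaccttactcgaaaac
sup-6 upstream: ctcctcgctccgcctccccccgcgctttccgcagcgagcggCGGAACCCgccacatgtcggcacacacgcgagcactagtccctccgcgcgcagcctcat
smy-7 upstream: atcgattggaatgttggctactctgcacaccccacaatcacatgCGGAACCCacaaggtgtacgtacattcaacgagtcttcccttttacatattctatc
F07C6.5 upstream: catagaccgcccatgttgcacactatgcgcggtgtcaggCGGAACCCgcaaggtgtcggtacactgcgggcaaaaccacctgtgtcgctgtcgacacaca
F10D2.13 upstream: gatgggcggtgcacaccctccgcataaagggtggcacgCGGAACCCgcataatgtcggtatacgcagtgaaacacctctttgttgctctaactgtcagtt
W05B2.9 upstream: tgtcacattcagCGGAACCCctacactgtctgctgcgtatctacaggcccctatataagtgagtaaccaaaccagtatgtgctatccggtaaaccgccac

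The 285 members had pooled signals of 12.9 to 198.8 with a median of 21.3, beside a median of 19.4 over all nuclear candidates. In the top 10% of all nuclear candidates by signal, which began at 30.9, were 59 members (20.7%), where 10% of all candidates are by construction. In the optimal list were 10 members, or 3.51% (exact Clopper-Pearson 95% interval 1.70 to 6.36%, for counting error only), beside 0.911% of all nuclear candidates. Regions within 1000 bp of tRNA genes, another class of small RNA genes, stood near the members on each measure. Of 436 such regions 22 (5.05%) were in the optimal list, 22.5% were in the top 10%, and their median was 21.7. No member lay within 200 bp of a tRNA gene. Signals were low in most members, with 188 of 285 below 25, and also in most nuclear candidates, of which 75% lay at or below 24.8.

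**Figure D1:**
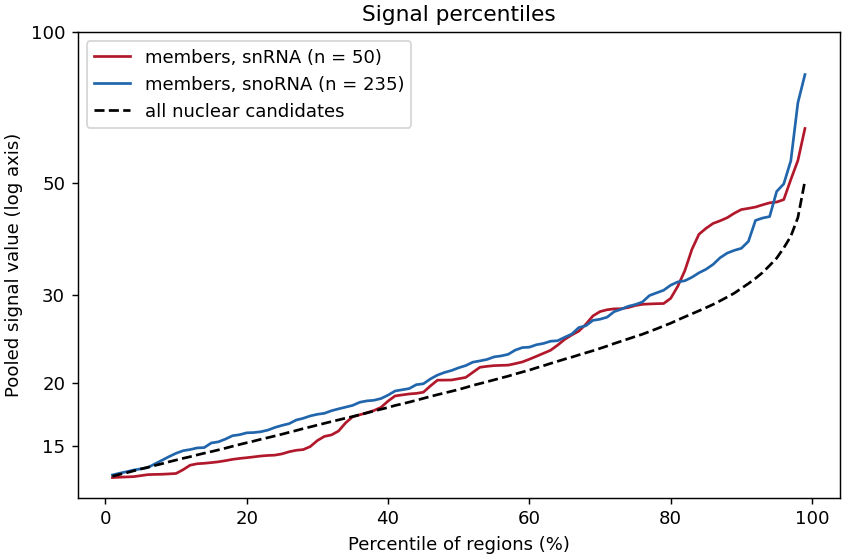
Pooled signal value (log axis) at each percentile of the regions, for members nearest an snRNA gene (n = 50), members nearest an snoRNA gene (n = 235) and all 29970 nuclear candidates (dashed). The snRNA curve lies below the dashed curve up to the 36th percentile (14.5 against 15.8 at the 25th) and above it beyond. From the 7th percentile on, the snoRNA curve lies above the dashed curve. The medians are 20.4, 21.5 and 19.4.

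Of the 445 genes, 189 had at least 1 member (42.5%, interval 37.8 to 47.2%). No share for other genes or positions at the same distance is set beside it. Whether it is more than such positions hold was not tested. These were 39 of 99 snRNA genes (39.4%) and 150 of 346 snoRNA genes (43.4%). More than 1 member lay near 83 genes, with at most 4 near one gene, and 18 members had more than 1 gene in range, so neither genes nor members are independent of each other. All members were 296 bp long, and 9 neighbouring pairs of members overlapped. The median distance to the nearest gene was 423 bp.

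By distance, 19 members had the summit inside the gene, with a median signal of 23.2. At up to 200 bp there were 59 members with a median of 24.0, beyond that up to 500 bp 80 with 21.3, and farther out up to 1000 bp 127 with 19.7. The share in the top 10% of signal was 31.6% inside and then 25.4%, 18.8% and 18.1% in these classes, from near to far. The order of these shares did not hold within either biotype. For snoRNA genes the shares were 20% inside (3 of 15) and then 27.5%, 18.5% and 19.2%, with medians of 21.3, 24.0, 19.5 and 20.4. For snRNA genes they were 75% inside (3 of 4 members) and then 12.5%, 20% and 13.04%, with medians of 38.97, 23.1, 22.1 and 15.8. Of the optimal members 0 were inside, 5 were in the nearest class outside the gene, 1 in the next and 4 in the farthest. The pooled medians differed little beside the spread within a class, whose quartiles at up to 200 bp were 17.9 and 30.7.

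Taken over both biotypes, the sides of the gene differed more in the strong regions than in the median. Upstream of the gene on its own strand lay 155 members with a median of 21.1, and downstream lay 111 with a median of 21.5. All 10 optimal members were upstream. Of the downstream members 0 of 111 were in the optimal list, and of those inside a gene 0 of 19. Taking 3 counts of the total as the limit that a count of 0 allows, the shares could be up to 2.70% and 15.8%, and the exact Clopper-Pearson upper bounds were 3.27% and 17.6%. In the top 10% were 39 upstream members (25.2%) and 14 downstream members (12.6%). The gap lay at snoRNA genes, with 35 of 129 upstream (27.1%) and 11 of 91 downstream (12.1%). At snRNA genes the shares were close, with 4 of 26 upstream (15.4%) and 3 of 20 downstream (15%), and the median was 18.9 upstream and 21.7 downstream. Promoters of protein-coding genes, taken to reach from 1000 bp before to 200 bp after a transcript start, were not spread evenly over the sides: 66 upstream and 31 downstream members lay in one. Within promoters 20 of 66 upstream members (30.3%) and 5 of 31 downstream members (16.1%) were in the top 10%, and outside promoters 19 of 89 (21.3%) and 9 of 80 (11.3%). Of the 10 optimal members, 8 were in a coding promoter.

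**Figure D2:**
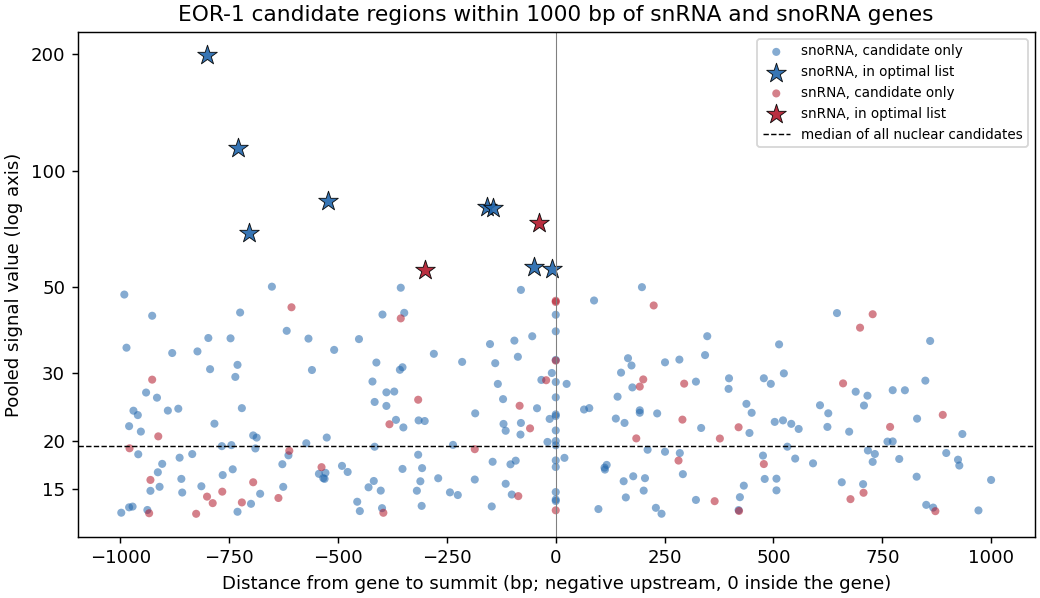
Pooled signal value (log axis) of each of the 285 members against the distance of its summit from the nearest snRNA or snoRNA gene in bp (negative upstream on the gene's strand, 0 inside); red is snRNA, blue is snoRNA, stars are in the optimal list and the dashed line is the median of all nuclear candidates, 19.4. All 10 stars lie upstream, between 9 and 802 bp from the gene, and no member downstream is above 49.9.

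The strongest member lay 802 bp upstream of the snoRNA gene T27A8.8, at chrX:16056424-16056719. Its signal was 198.8 in the pooled list, 104.4 in replicate 1 and 96.6 in replicate 2, and it ranked 12 among all nuclear candidates. It was in no coding gene or promoter, and the nearest coding gene, T27A8.7, was 162 bp from the summit. The 101 bp around the summit are shown in lower case, on the plus strand, because neither of the EOR-1 sequences searched below occurs in them.
T27A8.8 summit: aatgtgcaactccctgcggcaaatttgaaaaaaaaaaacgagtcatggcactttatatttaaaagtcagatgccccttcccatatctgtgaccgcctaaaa

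The next member had a signal of 114.6 (56.4 in replicate 1 and 52.0 in replicate 2) and lay 729 bp upstream of the snoRNA gene F28D1.13, at chrIV:12391236-12391531. That gene sits in an intron of rps-23, which encodes a protein of the small ribosomal subunit. The summit was 331 bp upstream of the rps-23 start and 203 bp upstream of the divergent gene dpm-3. The member at C06A1.9, an snoRNA gene in an intron of cdc-48.1, which encodes an AAA ATPase, lay at chrII:10563439-10563734 and had 83.3 in the pooled list and 33.5 in replicate 2. No region of replicate 1 overlapped it, which made it the 1 optimal member missing from a replicate list. Its summit was 523 bp upstream of the snoRNA gene and 180 bp upstream of cdc-48.1. At both hosts the summit was thus nearer to the coding start than to the snoRNA gene.

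Among the optimal members, 5 either lay closer to the small RNA gene than to the start of a coding promoter they were in, or lay in no coding promoter. They were at T27A8.8, T02E1.9, F54D8.7, ZK994.7 and Y53F4B.47. For T27A8.8 and ZK994.7, in no coding promoter, the distance to a coding start was not measured. At F54D8.7 on chromosome III the summit was 39 bp upstream of the snRNA gene and 787 bp upstream of cox-6A, a subunit of cytochrome c oxidase. Its signal was 73.1 in the pooled list, 22.6 in replicate 1, where it ranked 1264, and 49.4 in replicate 2, where it ranked 89. The member at the snoRNA gene Y53F4B.47 had its summit 9 bp upstream of the gene and 212 bp upstream of cmtr-1, which encodes a cap methyltransferase. The region, chrII:15025754-15026049, ran into the 3′ end of Y53F4B.12. It had 55.5 in the pooled list, 21.5 in replicate 1 and 32.8 in replicate 2. At ZK994.7 the summit was 49 bp upstream of the snoRNA gene, within the pxn-1 gene (a peroxidasin), in no coding promoter, with 56.1 in the pooled list, 19.9 in replicate 1 and 42.6 in replicate 2. All 3 were higher in replicate 2, on scales not known to be comparable, and stood at ranks 1264, 1611 and 2423 in replicate 1.

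The snoRNA gene T02E1.9 on chromosome I had a member 159 bp upstream, at chrI:8224167-8224462, with 80.5 in the pooled list, 38.4 in replicate 1 and 41.8 in replicate 2. The summit was 361 bp upstream of T02E1.2. The member 144 bp upstream of F39B2.14, which overlaps an exon of tmem-107, lay at chrI:14759408-14759703 and had 80.03 (41.3 and 39.5 in replicates 1 and 2), with its summit 83 bp upstream of tmem-107, a ciliary transition zone gene, and 374 bp upstream of rps-26, a ribosomal protein gene. ZK484.11 had a member 705 bp upstream, at chrI:6091833-6092128, with 68.8 (31.9 and 34.2), 596 bp upstream of ZK484.6. These 3 ranked between 116 and 256 in both replicate lists. The snRNA gene T14B4.10 had one 300 bp upstream, at chrII:6716506-6716801, with 55.2 (36.4 and 18.1), 209 bp upstream of T14B4.5 and 247 bp upstream of T14B4.20; it ranked 168 in replicate 1 and 2554 in replicate 2.

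**Figure D3:**
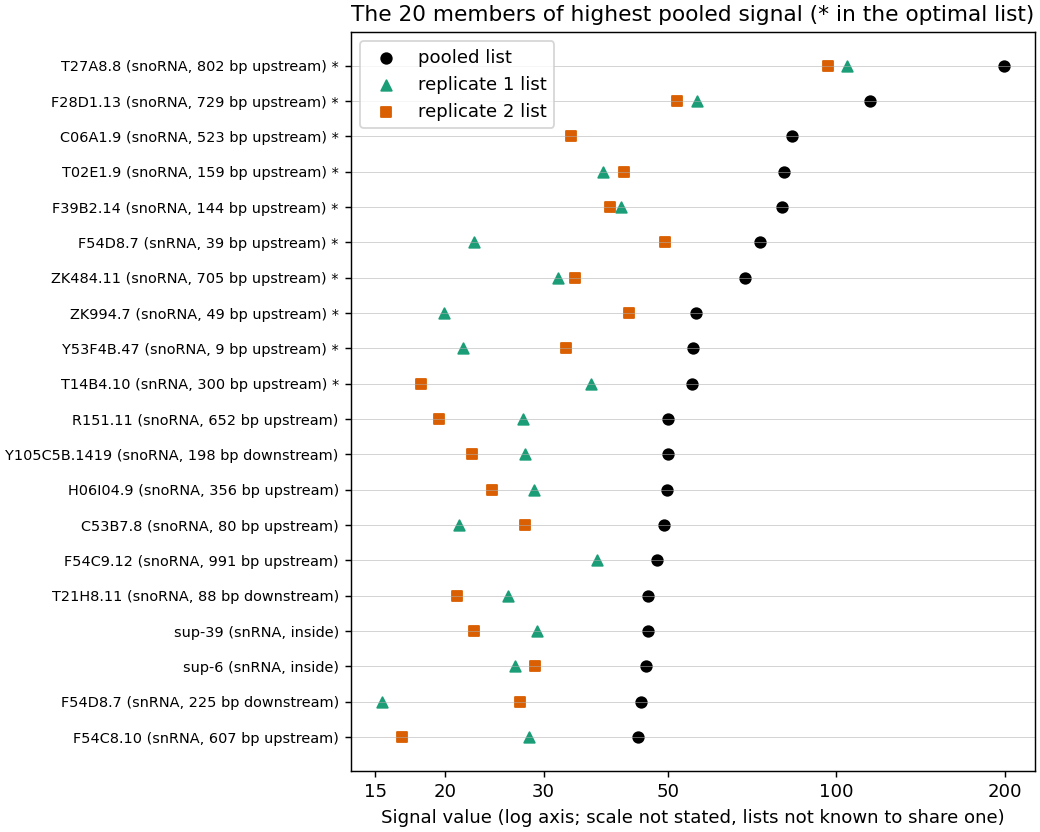
Signal value (log axis) of the 20 members of highest pooled signal in the pooled list (circles), the replicate 1 list (triangles) and the replicate 2 list (squares), with the gene, its biotype and the distance of the summit; asterisks mark the optimal list, and a missing marker means that no region of that replicate overlapped the member. The pooled values run from 198.8 at T27A8.8 to 44.3 at F54C8.10, and only C06A1.9 lacks a triangle and only F54C9.12 a square.

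Below the optimal list, the highest signal was 50.1, at R151.11, an snoRNA gene in an intron of rpl-6, a gene of the large ribosomal subunit. The values were 27.6 in replicate 1 and 19.5 in replicate 2, and the summit was 486 bp upstream of rpl-6. The snoRNA gene WBGene00220224, in an intron of jac-1, which encodes a p120 catenin, had 49.9 (27.8 and 22.3) with the summit 198 bp downstream. H06I04.9 in an intron of ubl-1, a ubiquitin-like and ribosomal protein fusion gene, had 49.8 (28.8 and 24.2), 180 bp upstream of ubl-1. C53B7.8 on chromosome X, in no coding gene, had 49.1 (21.2 and 27.7) at 80 bp upstream. F54C9.12 in an intron of iff-2, which encodes a translation factor of the eIF5A type, had 47.8 at 991 bp upstream, with 37.3 in replicate 1 and no region in replicate 2.

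Among snRNA genes the next were sup-39 and sup-6, known from genetics as suppressor genes that encode U1 snRNA, the RNA that pairs with the start of an intron. In both the summit was inside the gene. The sup-39 member had 46.0 in the pooled list, 29.2 in replicate 1 and 22.5 in replicate 2, and the sup-6 member 45.7, 26.7 and 28.9 in the same lists, so both were found in all 3 lists. The sup-39 summit also counted as promoter, 889 bp upstream of eif-2Bgamma, and that of sup-6 lay in no coding promoter. A small annotated gene, mir-1831, lies within sup-39 and is typed as snRNA in the annotation. A second region near F54D8.7, 225 bp downstream and in an exon of alh-1, an aldehyde dehydrogenase gene, had 44.8 (15.5 and 27.2).

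**Figure D4:**
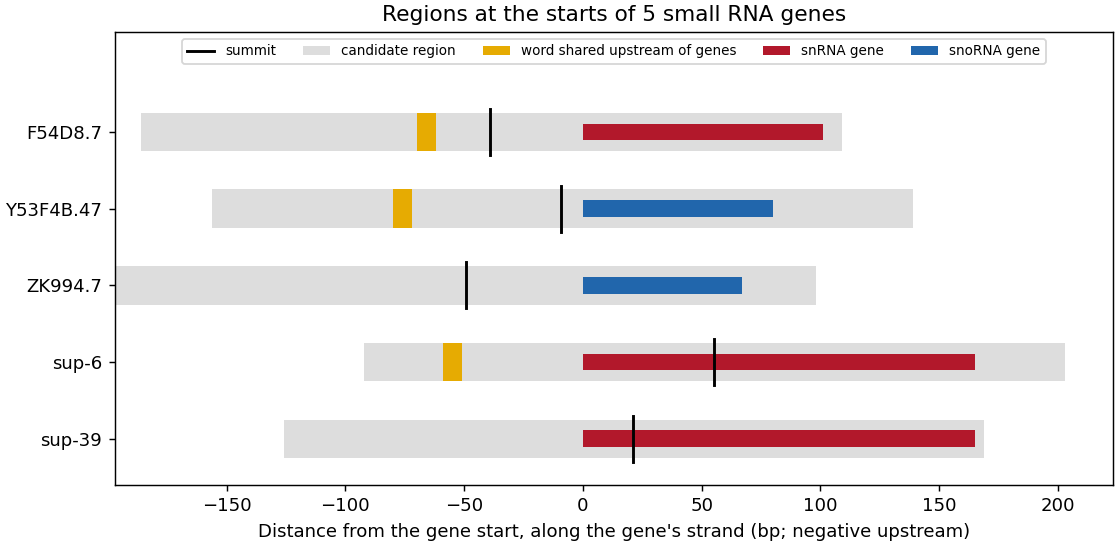
Position of 5 candidate regions (grey) relative to the start of the small RNA gene, in bp along the gene's strand; red is an snRNA gene, blue an snoRNA gene, the black line is the summit and yellow the word CGGAACCC where the 100 bp upstream hold it. The summits lie 9 to 49 bp before the gene at the first 3 and inside the gene at sup-6 and sup-39, and the word ends 62, 72 and 51 bp before F54D8.7, Y53F4B.47 and sup-6.

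The remaining snRNA genes of highest signal began with F54C8.10, at 44.3 (28.2 in replicate 1 and 16.8 in replicate 2). Its member was 607 bp upstream of the snRNA gene. That summit lay within the gene F54C8.6, 624 bp upstream of one of its transcript starts. T20D3.12 had 42.5 (14.4 and 30.4) at 728 bp downstream, in the intron of coa-4. The copy of C47F8.9 with the highest value had 41.5 (16.7 and 23.4) at 356 bp upstream and 755 bp upstream of F08G2.4. T27E4.11 had 39.2 (15.5 and 25.7) at 699 bp downstream, in no coding gene. The SmY genes smy-1, with 32.2 and the summit inside the gene, and smy-9, with 28.8 and the summit downstream, completed the 10 snRNA genes. SmY RNAs are small RNAs of nematodes that bind Sm proteins.

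The 99 snRNA genes were grouped into families by linking pairs of sequences at 80% identity or more, and the SmY genes by name. Each family linked by sequence is called here by one of its genes, since the annotation does not type them. Of the 23 genes of the R07E5.16 family 9 had a member, of the 19 of the C47F8.9 family 6, of the 13 of the sup-6 family 5, of the 12 of the F07C6.5 family 3 and of the 5 of the T11F9.15 family none. SmY genes typed as snRNA had a member in 9 of 10 cases, with smy-8 the exception, but several of them neighbour each other and share regions. Their 11 members had signals of 13.8 to 32.2 with a median of 21.7, and none was in the optimal list. The 7 members of the sup-6 family had the highest family median, 28.1, with a range of 13.8 to 46.0, and the 8 of the C47F8.9 family had the lowest of the named families, 16.5, with T14B4.10 at 55.2 as its highest. The 14 members of the R07E5.16 family ran from 13.02 to 73.1 with a median of 20.98. The families overlap widely in signal.

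Many snRNA genes are exact copies of each other. Of the 99, 32 fell into 7 sets of identical sequence, and 11 of these 32 had a member. Of 14 identical copies of R07E5.16, 3 had a member, with signals of 13.1 to 28.8, and of 7 copies of C47F8.9, 4 had one, with 12.98 to 41.5. F54D8.7 exists in 3 identical copies: that on chromosome III had the optimal member with 73.1, one on chromosome IV had 20.3 as its highest, and the other on chromosome IV had no member. Only 2 member regions, at F54D8.7 and F38E11.11, overlapped a gene that has an identical copy. The summits at sup-6 and sup-39 lay in genes without one, but of a family grouped by similar sequence. Reads there may also fit more than 1 gene. How reads that fit several copies were treated is not stated, and a low or missing signal at such a gene cannot be told apart from reads left out there.

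The upstream word was in 6 of the 285 member regions (2.11%), beside 41 of all 29970 nuclear candidates (0.137%). Regions near these genes hold their upstream sequence, so the difference follows from the rule. Of the 46 genes with the word 20 had a member (43.5%), 2 of them with an optimal one (F54D8.7 and Y53F4B.47), beside 169 of the 399 genes without it (42.4%), 8 of them with an optimal one. Among snRNA genes alone, 13 of 26 with the word and 26 of 73 without it had a member (50% and 35.6%). Among snoRNA genes the order was the other way, with 7 of 20 with the word (35.0%) and 143 of 326 without it (43.9%). Genes with the word and a member had a median highest signal of 24.4, and those without it 24.2. This pooled value joins opposite orders: 20.3 with the word and 26.4 without it among snRNA genes, and 31.4 and 24.0 in that order among snoRNA genes.

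A sequence recalled for EOR-1, GAGACGCAG or AGACGCAGA on either strand, lay within 50 bp of the summit in 2 of 285 members (0.702%), beside 0.38% of all nuclear candidates. The 2 spellings overlap by 8 bases. These members were at C41C4.16, an snoRNA gene in an intron of the SUMO protease gene ulp-4, with its summit inside the gene and a signal of 42.4 (36.5 in replicate 1 and 8.15 in replicate 2), and at ZK20.9, 503 bp downstream with 22.4 (16.3 and 11.6). Their windows around the summit, chrII:8130751-8130851 and chrII:11635780-11635880, are shown on the plus strand with the sequence in capitals, which is the reverse complement of the spelling above. The shorter word GAGAG on either strand was in 35 members (12.3%, interval 8.71 to 16.7%), beside 7.03% of all nuclear candidates. Regions within 1000 bp of tRNA genes had a like share, 59 of 436 (13.5%). Neither the EOR-1 sequence nor GAGAG occurred within 50 bp of the summit in any of the 10 optimal members. This allows a share of up to 30% by the limit of 3 counts and up to 30.8% by the exact upper bound.
C41C4.16 summit: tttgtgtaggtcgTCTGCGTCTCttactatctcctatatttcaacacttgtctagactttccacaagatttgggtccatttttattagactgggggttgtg
ZK20.9 summit: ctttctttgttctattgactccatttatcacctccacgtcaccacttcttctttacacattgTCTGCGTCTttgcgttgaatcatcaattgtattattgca

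Hosts were described from the annotation. Of the 445 genes 217 lay wholly in a protein-coding gene on the same strand, 34 of 99 snRNA and 183 of 346 snoRNA genes. A member lay near 61 of the 183 snoRNA genes in a host (33.3%, interval 26.6 to 40.7%) and near 89 of the 163 without one (54.6%, interval 46.6 to 62.4%). Optimal members were near 4 genes of each kind. Among snRNA genes the shares were close, with 13 of 34 in a host (38.2%) and 26 of 65 without one (40.0%). The 108 members nearest a gene in a host had a median of 20.9, and the 177 nearest a gene outside a host 21.5. Of those 108, 41 were in the host's promoter, with a median of 23.6, 31.7% in the top 10% and 3 in the optimal list. The other 67 had a median of 18.9, with 11.9% in the top 10% and 1 in the optimal list, the member at ZK994.7.

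Over all members, 107 were in a coding promoter, with a median of 22.6 and 8 in the optimal list (7.48%, interval 3.28 to 14.2%), beside 8068 promoter regions among all nuclear candidates with a median of 19.9 and 155 in the optimal list (1.92%). Of the 107, 46 were closer to the small RNA gene than to a coding start and had a median of 23.1 with 3 in the optimal list, and 61 were closer to a coding start with a median of 22.1 and 5 in the optimal list. The 19 members in promoters of more than 1 coding gene had a median of 24.3. In introns, 73 members had a median of 21.1 with 1 in the optimal list (1.37%, interval 0.0347 to 7.40%), beside 10669 of all nuclear candidates with 19.3 and 37 in the optimal list (0.347%). Outside coding genes and their promoters, 80 members had a median of 21.8 and 1 in the optimal list (1.25%), beside 9602 with 19.4 and 77 in the optimal list (0.802%). In exons 25 had a median of 18.1 and 0 in the optimal list, beside 1631 with 18.2 and 4 in the optimal list. Exons were the 1 class in which the members' median was not above that of all candidates.

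Both replicate lists held a region overlapping 159 of the 285 members (55.8%, interval 49.8 to 61.6%), beside 49.3% of all nuclear candidates. Replicate 1 alone held 52 further members (18.2%), beside 24.4% of all nuclear candidates, and replicate 2 alone held 62 (21.8%), beside 21% of all. Neither list held 12 members (4.21%), beside 5.31% of all, and these 12 had pooled signals of at most 19.1. By biotype they were 6 of 50 snRNA members (12%) and 6 of 235 snoRNA members (2.55%), on opposite sides of the share of all. Among the top 10%, 6 of 59 members were not in both lists. No share for all nuclear candidates of that strength is set beside this count. The 6 members were at C06A1.9, F54C9.12, F25H2.15, K02F3.15, F47E1.19 and F09G2.14, which were named after their values were seen. Among the 159 members in both lists, Spearman's rho between the replicate signals was 0.31, given as a description over regions of the same libraries, beside 0.18 for all nuclear candidates in both lists. In replicate 1 the member had the better rank in 72 cases and in replicate 2 in 87. The optimal members ran from 19.9 to 104.4 in replicate 1 and from 18.1 to 96.6 in replicate 2, while the medians over all members found were 13.8 and 13.2, beside 12.9 and 11.7 over all nuclear candidates found.

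**Figure D5:**
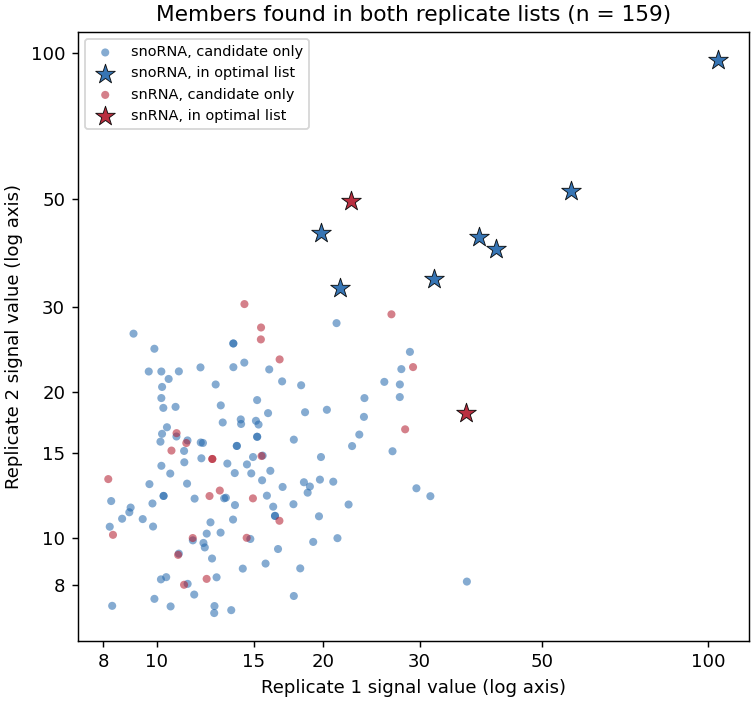
Signal value in replicate 1 (horizontal, log axis) and in replicate 2 (vertical, log axis) of the 159 members found in both lists; red is snRNA, blue is snoRNA and stars are in the optimal list. The 9 stars include T27A8.8 at 104.4 and 96.6, and the members outside the optimal list form a broad cloud with little order (rho 0.31 over all 159).

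At the distance limit, the members just inside were at F43A11.8 (1000 bp, signal 15.8), Y102A11A.17 (998 bp, 13.03) and F54C9.12 (991 bp, 47.8). The regions just outside were near K02C4.8 (1001 bp, 25.3), K09E9.5 (1003 bp, 20.2) and W10C8.17 (1008 bp, 18.9).

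The proteins that make and carry these RNAs were looked at in a list of 68 spliceosome, Sm, SNAPc, Integrator and snoRNP genes, of which 60 matched the annotation. A candidate summit lay in the promoter of 17 (28.3%), beside 32.3% of all protein-coding genes. An optimal peak lay in the promoter of 1, or 1.67% (interval 0.042 to 8.94%), beside 0.987%. That gene was ints-4, of the Integrator complex that cuts the 3′ ends of snRNAs, with a signal of 109.6 at chrI:13663278-13663573 and the summit 74 bp downstream of its start. The median of the highest candidate per gene was 22.3 in the list and 21.6 over all protein-coding genes with one.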

How the data were processed

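Chromatin immunoprecipitation and sequencing was done on 2 biological replicates of 1 group. Per the deposited README, the authors called candidate regions against a control, separately for each replicate and for both pooled, and drew the optimal list from these. Each region has a deposited signal value on an unstated scale and the −log10 of a q-value, both the authors'. The sources used here do not give the read depth, the aligner, the caller or the threshold of the optimal list, so no error can be put on a single signal, and values of different lists stand side by side. Each candidate list holds a fixed 30000 regions.

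Lists in ce11 were used, with genes of Ensembl release 115. A member counted as found in another list when it overlapped a region there by 1 bp or more, and the region of highest signal was taken, so that neighbouring members can share one. Intervals (95%) are Clopper-Pearson and exact, for counting error alone, and a count of 0 is also given the limit of 3 counts of the total. There was no second condition, and no test was made. Distances and overlaps were checked on planted positions. The genes named by rule were those with an optimal member, the 10 of highest signal of each biotype, the 3 members on each side of the distance limit, the hosts and promoters of these, and listed protein genes with an optimal peak. Families, identical copies, the upstream word, the genes H06I04.9 and C53B7.8 and regions missing from a replicate were chosen after their values were seen. The members and lists were chosen with earlier results of these data known. The sequence of 1 region is not reported here. The tools were edlib 1.3.9, matplotlib 3.10.9, SciPy 1.17.1, pandas 2.3.3, numpy 2.4.6 and Python 3.11.15.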

Additional observations from a re-analysis of the deposited data

How the results depend on the processing

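The counts depend on the distance limit. At 200, 500 and 2000 bp there were 78, 158 and 536 members, and 48, 94 and 287 of them were found in both replicates. Genes with a member numbered 75 at 200 bp. In the optimal list were 5 members at 200 bp and 6 at 500 bp. The EOR-1 sequence was in 1 member at 200 bp and 1 at 500 bp, and in 4 members with 100 bp to each side of the summit or with the whole region searched. With the list of 1 replicate alone, leaving out the other, there were 262 to 309 members near 190 to 214 genes. In the optimal list were 9 to 10, and 1 to 2 had the sequence. That list was itself drawn from both replicates. The medians of the members from 1 replicate list were 11.9 to 12.99, on the replicates' own scales. Of the 285 members of the pooled list, 211 overlapped a region of replicate 1 and 221 one of replicate 2. Distance to the gene start, spliced leader genes included (301 members, 15 of them in the optimal list), a stricter optimal list (7), other overlap rules (130 found in both replicates) and hosts on either strand (272 genes) each stayed within 1.5 times the reported count. No paired analysis was possible because there was 1 group. Lists in ce10 were not used, since the annotation used is in ce11. Read depth is unknown, so the precision of a single signal is too, and a region missing from a replicate list cannot be told apart from one too weak to be listed. The control and any untagged animals were not analysed here.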
